A study of Mus musculus with 6 samples.

Results

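The genes described here encode receptors for interleukins, colony-stimulating factors, chemokines, tumour necrosis factor (TNF) ligands and interferons, together with the Toll-like receptors. They were taken by symbol, as the rows of the count table that match 1 of 7 patterns of gene names, which gave 86 of 25628 symbols. The choice was made with earlier results of these data known. By family there were 35 interleukin receptor symbols, 17 of the TNF receptor superfamily, 10 Toll-like receptors, 8 CC and 6 CXC chemokine receptors, 5 colony-stimulating factor receptors and 5 interferon receptors. The patterns also take in a few symbols that are no signalling receptor, such as Il1rn, the secreted antagonist of interleukin 1, and Il22ra2, a soluble binding protein.

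The cells were mouse TgSpi1 erythroleukaemic blasts of bone marrow origin, from the culture numbered 722, which overexpress the transcription factor PU.1 (gene Spi1) and were kept with erythropoietin (EPO). All 6 libraries came from cells carrying an shRNA against Spi1 that doxycycline induces. In 3 libraries the cells were left untreated and in 3 they had received doxycycline for 48 h, and each group has replicates numbered 1 to 3, called biological replicates in the labels. No library had doxycycline with another shRNA, so an effect of the drug and one of the lowered Spi1 cannot be told apart, and the labels do not say whether the culture is 1 clone.

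Cytokine receptors of the interleukin and colony-stimulating factor type have no kinase of their own and signal through bound Janus kinases (JAK) and STAT factors, usually as a ligand-binding chain paired with a shared signalling chain. The common beta chain serves interleukin 3, interleukin 5 and GM-CSF, and the common gamma chain serves interleukins 2, 4, 7, 9, 15 and 21. Interleukin 1 and Toll-like receptors signal through MYD88 and IRAK kinases, TNF receptors through TRAF adaptors or death domains, and chemokine receptors through G proteins. PU.1 is known for driving myeloid receptor genes, whereas the erythroid lineage depends mainly on the EPO receptor.

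Levels are in CPM, the counts of a gene scaled to 1 common library total after TMM, edgeR's between-library normalization. Changes are on the log2 scale and are negative where doxycycline libraries were lower. A gene passed where the Benjamini-Hochberg adjusted p of edgeR's quasi-likelihood test, over all 14158 genes tested, was under 0.05. The fit without a term for the replicate number is the main one, and the fit with it is called the block fit. Libraries of equal number deviated together from their group means, so within-number values are given beside each result. The p-values measure the spread between libraries of a group, and in the block fit only the spread left once the replicate numbers are accounted for.

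Total counts were between 78926663 and 101276319 per library. Spi1 stood at 415, 353 and 330 CPM in untreated replicates 1, 2 and 3 and at 84.8, 80.4 and 62.1 CPM with doxycycline, a log2 change of -2.27 (SE 0.17, adjusted p = 0.0030). The cells had the RNA of the erythroid lineage. Its 14 markers summed to 6756, 7599 and 9324 CPM untreated and to 9091, 9373 and 12268 CPM with doxycycline, higher in each pair. With the block 9 of the 14 rose and 2 fell, where 10.3% of all genes tested rose and 15.6% fell, and 1 rose without it. Gata1, the master factor of that lineage, stood at 274 ± 16.8 and 268 ± 34.3 CPM (SD, n = 3 each). Markers of other blood cells summed to less than the erythroid ones, and some moved with the groups. The 9 macrophage and monocyte markers in the table summed to between 5.09 and 11.0 CPM untreated and between 1.40 and 2.95 CPM with doxycycline, and 4 of them, among them Mrc1 and Marco, were under 0.1 CPM on average. The 8 eosinophil markers went from between 1.21 and 3.20 to between 0.154 and 0.522 CPM; each of these lists holds 1 of the receptor genes. The 12 neutrophil markers summed to 0.374, 47.0 and 10.8 CPM untreated and 0.219, 12.4 and 10.4 CPM with doxycycline, which differed more between the numbers than between the groups. The 10 mast cell and basophil markers in the table summed to 413, 463 and 289 CPM untreated and to 379, 475 and 300 CPM with doxycycline, with mixed directions among the pairs. Without Gata2, which progenitors also express, the sums were between 26.8 and 84.7 CPM untreated and between 17.4 and 56.1 CPM with doxycycline. With the block 5 of the 8 tested markers of this list fell and none rose, with a median log2 fold change of -1.34. Over all genes tested 15.6% fell and 10.3% rose. The 11 T and NK cell markers summed to 5.63, 5.05 and 3.41 CPM untreated and to 7.72, 6.19 and 5.34 CPM with doxycycline, higher in each pair; most of this was Lck, and 8 of the 11 averaged under 0.1 CPM. The 10 B cell markers summed to 0.510, 2.80 and 1.13 CPM untreated and to 0.373, 0.884 and 0.873 CPM with doxycycline, lower in each pair. Stromal and endothelial markers summed to at most 1.25 CPM in any library. With the block 3 of 4 tested macrophage and monocyte markers fell, as did 2 of 2 eosinophil and 2 of 9 neutrophil markers, and none rose. Of the tested T and NK cell markers 2 of 3 rose with the block and none fell, and none of 3 B cell markers was called. Of 2 tested stromal and endothelial markers 1 fell. The part of these markers in the results below was not tested. In bulk RNA, fewer cells of a type and less RNA per cell cannot be told apart.

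Most of the receptor genes were silent or nearly so. Of the 86 members 40 were tested after the filter on low counts, and 31 had a mean of 0.5 CPM or more over the 6 libraries and were judged. These 31 are not all members: the other 55 comprised 9 that were tested at lower levels and 46 that the filter removed, none of which had a mean above 0.129 CPM or a count above 25 in any library. Just above the minimum were Il9r and Tlr6, with means of 0.584 and 0.626 CPM, and just below it Csf1r and Il6ra, with 0.437 and 0.383 CPM. Il9r and Tlr6 reached the minimum through 1 group only, Il9r through the doxycycline libraries and Tlr6 through the untreated ones, so their direction is in part fixed by the minimum. Among the silent members were Il2ra and Il2rb, the other chains of the interleukin 2 receptor, Il5ra, Il7r, Il10ra, Csf3r (the G-CSF receptor), Ccr7, Tnfrsf1b (the second TNF receptor) and 9 of 10 Toll-like receptors.

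**Figure D1:**
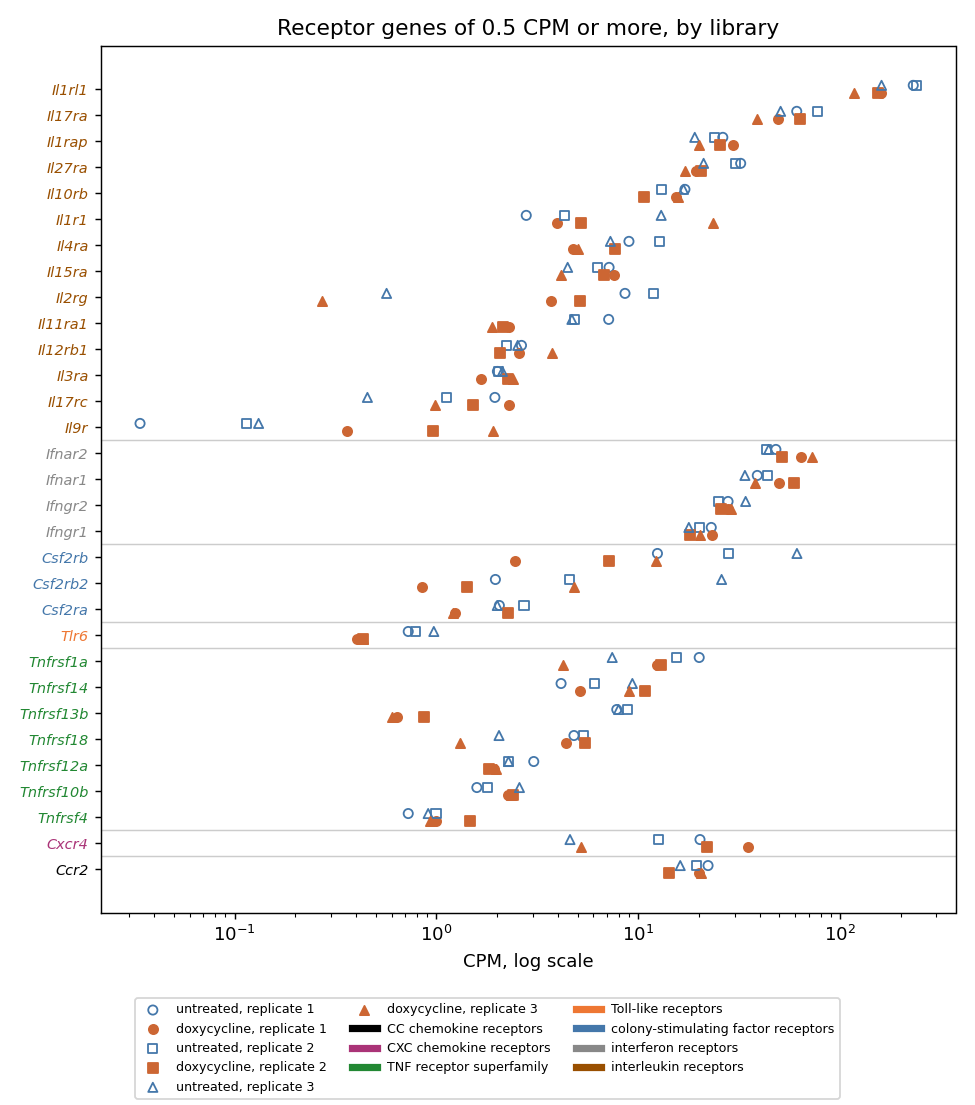
CPM on a log scale for each of the 31 judged receptor genes, 1 symbol per library (open, untreated; filled, doxycycline; shape, replicate number), grouped by family. Il1rl1 is the highest at 117 to 240 CPM, Tnfrsf13b and Il9r show the widest gaps between the groups, and Il2rg, Csf2rb and Il1r1 differ widely between replicate numbers within a group.

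Per length of transcript the order of levels was led by a single gene. Il1rl1, which encodes ST2, the interleukin 33 receptor of mast cells and other type 2 cells, stood at 30.5 CPM per kilobase of exon untreated and 20.8 with doxycycline. It was followed by the interferon alpha and beta receptor chain Ifnar2 (13.6 and 18.8 CPM per kilobase), Il27ra (7.98 and 5.43), Ifngr2 (7.69 and 7.26), Il17ra (7.27 and 5.84), Ifngr1 (7.13 and 7.22), Cxcr4 (6.89 and 11.5) and Ifnar1 (6.52 and 8.23). For scale, the EPO receptor gene Epor stood at 40.7 and 55.4 CPM per kilobase. The untreated levels of the members from Il27ra to Ifnar1 in this order lie close together, and their order was not tested.

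Few of the judged receptors passed the test without the block, and many more passed with it. Without the block 2 of 31 fell and none rose (6.45% called, where 2.63% of the 11811 tested genes of 0.5 CPM or more were called, 2.2% lower and 0.432% higher), and those were Tnfrsf13b and Il11ra1. At an unadjusted p under 0.05, 7 were lower and 2 higher, and DESeq2 called 3 lower and 1 higher. The shares of all genes at this level were not computed for these counts. With the block 12 fell and 5 rose, which is 54.8% called, where 27.4% of the genes at this level were called. Without number 1 in that fit 7 of the 17 kept their call, namely Csf2rb, Csf2rb2, Il11ra1, Il1rl1, Il2rg, Il9r and Tnfrsf13b. Those that fell made up 38.7% of the judged members (16.5% of genes) and those that rose 16.1% (10.9% of genes). The groups did not overlap for 7 members that were lower with doxycycline, 22.6% against 11.6% of genes, and for 2 that were higher, 6.45% against 8.52% of genes. Within equal replicate numbers 14 members were lower with doxycycline in all 3 pairs (45.2%, against 30.3% of genes) and 8 were higher in all 3 (25.8%, against 28.7%). The median log2 fold change of the 31 was -0.08 without the block and -0.09 with it, and 0.00 in both fits over all genes at this level. In the counts with the block, of no overlap and of pairs, Tlr6 is among the lower members and Il9r among the higher. Both reached the minimum through 1 group only. Of the 29 members of 1 CPM or more, 11 fell and 4 rose with the block, and the share called among all genes of 1 CPM or more was not computed. The members were chosen with earlier results of these data known, so these shares are a description.

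**Figure D2:**
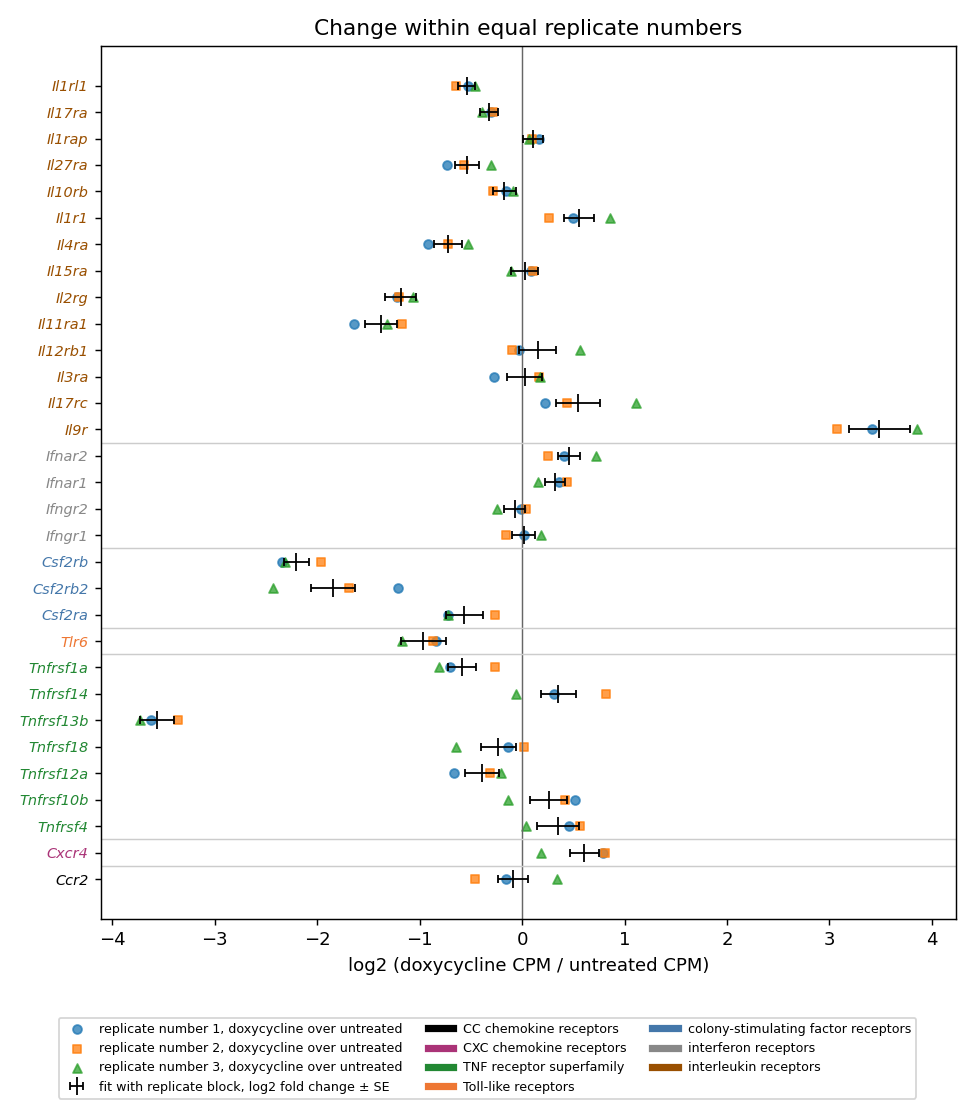
Log2 ratio of doxycycline to untreated CPM within replicate numbers 1, 2 and 3 (coloured symbols) and the block fit's log2 fold change with its SE (black) for each of the 31 judged receptor genes. Tnfrsf13b, Csf2rb, Csf2rb2, Il11ra1 and Il2rg lie below -1 in every pair, and Il9r lies above 3 in every pair.

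The TNF receptor superfamily held the largest fall. Tnfrsf13b encodes TACI, a receptor for BAFF and APRIL best known from B cells and plasma cells. It stood at 7.82, 8.87 and 7.98 CPM in untreated replicates 1, 2 and 3 and at 0.636, 0.863 and 0.602 CPM with doxycycline. All untreated libraries lay close together and far above all doxycycline libraries. The fall was 11.7-fold (log2 fold change -3.55, SE 0.25, adjusted p = 0.0030), and the pairs gave -3.62, -3.36 and -3.73. Leaving out any single library kept this call, with log2 fold changes between -3.73 and -3.44 and adjusted p between 0.0070 and 0.041. The gene (ENSMUSG00000010142.12, protein coding) lies on chromosome 11 from 61126755 to 61149372 on the plus strand of GRCm38, and none of its exons overlaps another annotated gene. The summed B cell markers were lower with doxycycline in each pair too (0.510, 2.80 and 1.13 CPM untreated, 0.373, 0.884 and 0.873 CPM with doxycycline), with 6 of 10 under 0.1 CPM on average, and their part in the fall of Tnfrsf13b was not tested. Tnfrsf13c, the BAFF receptor, was below the minimum, at 0.340 ± 0.208 CPM untreated and 0.225 ± 0.139 CPM with doxycycline (SD, n = 3 each), and did not pass in either fit.

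The other judged TNF receptors moved less. Tnfrsf1a, the main TNF receptor with a death domain, stood at 20.04, 15.5 and 7.43 CPM untreated and at 12.3, 12.9 and 4.23 CPM with doxycycline. The groups overlapped, but each number was lower with doxycycline. It passed only with the block (log2 fold change -0.59, SE 0.14, adjusted p = 0.011, against adjusted p = 0.70 without it), and not in the block fit without number 1 (adjusted p = 0.17). The other 5 did not pass in either fit. Tnfrsf14 (HVEM) stood at 6.53 ± 2.63 and 8.29 ± 2.88 CPM, Tnfrsf18 (GITR) at 4.07 ± 1.77 and 3.71 ± 2.15 CPM, Tnfrsf12a, the TWEAK receptor, at 2.53 ± 0.441 and 1.91 ± 0.0748 CPM, and Tnfrsf10b, the TRAIL receptor, at 1.98 ± 0.525 and 2.33 ± 0.0576 CPM (SD, n = 3 each, untreated first). Tnfrsf4 (OX40) had 0.876 ± 0.138 and 1.13 ± 0.292 CPM.

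The gene for the common beta chain and its interleukin 3-specific duplicate were lower with doxycycline in every pair. Csf2rb, the chain shared by the receptors for interleukin 3, interleukin 5 and GM-CSF, stood at 12.4, 28.1 and 61.1 CPM in untreated replicates 1, 2 and 3. With doxycycline it stood at 2.45, 7.18 and 12.3 CPM. The highest doxycycline library lay just under the lowest untreated one, while the untreated libraries themselves spanned 4.91-fold. The pairs gave log2 ratios of -2.35, -1.97 and -2.31, so Csf2rb passed with the block (log2 fold change -2.20, SE 0.12, adjusted p = 2.1e-06) and not without it (-2.21, SE 0.71, adjusted p = 0.19). Csf2rb2, the rodent duplicate that serves interleukin 3 alone, stood at 1.96, 4.56 and 25.9 CPM untreated and at 0.845, 1.42 and 4.798 CPM with doxycycline. Its groups overlapped because replicate 3 was high in both. Its block value was -1.85 (SE 0.22, adjusted p = 1.9e-04; 0.38 without the block). The 2 genes are neighbours on chromosome 15 and are close copies, Csf2rb from 78325752 to 78353847 on the plus strand and Csf2rb2 from 78282507 to 78305721 on the minus strand. The split of reads between them is therefore uncertain.

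The ligand-binding partners of that chain gave smaller values. Il3ra, the interleukin 3 chain, had 2.05 ± 0.0628 CPM untreated and 2.11 ± 0.397 CPM with doxycycline (SD, n = 3 each), with a block log2 fold change of 0.03 (SE 0.17, adjusted p = 0.93). Csf2ra, the GM-CSF chain, stood at 2.05, 2.71 and 2.001 CPM untreated and at 1.24, 2.26 and 1.21 CPM with doxycycline, and fell with the block only (-0.56, SE 0.18, adjusted p = 0.043; 0.54 without). That call was lost in DESeq2 with the block (adjusted p = 0.11) and in the block fit without number 1 (adjusted p = 0.30). Il5ra was silent. Whether these changes differ from that of Csf2rb was not tested.

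Among the 14 judged interleukin receptors 6 fell with the block (42.9%, against 16.5% of genes at this level) and 2 rose (14.3%, against 10.9%). Il11ra1 also passed without the block. Il11ra1, which binds interleukin 11 and signals with gp130, stood at 7.13, 4.84 and 4.69 CPM untreated and at 2.29, 2.15 and 1.88 CPM with doxycycline. The groups lay apart. The fall was 2.64-fold (log2 fold change -1.40, SE 0.26, adjusted p = 0.038), and the pairs gave -1.64, -1.17 and -1.32. Leaving out any single library ended this call without the block (adjusted p between 0.057 and 0.15), as did fitting without a filter on low counts (adjusted p = 0.13), whereas with the block its adjusted p was 1.6e-04. Its partner Il6st, which encodes gp130, stood at 3.37 ± 0.993 and 3.74 ± 1.66 CPM (SD, n = 3 each) and did not pass in either fit. Il11ra1 (chromosome 4, 41699989 to 41769474, plus strand) shares exon sequence with the annotated gene Ccl27a, and it has a close copy, Il11ra2, on the same chromosome, so its count is uncertain. Il27ra, whose receptor also uses gp130, had 32.2, 30.5 and 21.1 CPM untreated and 19.4, 20.5 and 17.1 CPM with doxycycline and fell with the block (-0.54, SE 0.11, adjusted p = 0.0069; 0.24 without; 0.14 with the block but not number 1).

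The common gamma chain and the interleukin 4 chain that pairs with it fell with the block. Il2rg, the common gamma chain, stood at 8.59, 11.9 and 0.566 CPM in untreated replicates 1, 2 and 3 and at 3.68, 5.16 and 0.271 CPM with doxycycline. Replicate 3 was far below the others in both groups, a span of 21.0-fold among untreated libraries, yet the pairs gave nearly one value, -1.23, -1.20 and -1.06. The block fit gave -1.19 (SE 0.15, adjusted p = 2.9e-04), against adjusted p = 0.72 without it. Il4ra, the interleukin 4 chain, stood at 8.99, 12.7 and 7.28 CPM untreated and at 4.75, 7.71 and 5.05 CPM with doxycycline, and fell with the block (-0.72, SE 0.13, adjusted p = 0.0030; 0.30 without; 0.091 with the block but not number 1).

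Il9r, the interleukin 9 chain, known from mast cells and some T cells, went the other way. It stood at 0.0340, 0.115 and 0.131 CPM untreated, which is 3, 9 and 13 counts as deposited, and at 0.362, 0.966 and 1.90 CPM with doxycycline, which is 33, 94 and 189 counts. Each doxycycline library lay above each untreated one. Il9r reached the minimum through the doxycycline libraries only, so its direction is in part fixed by the minimum. The block fit gave 11.2-fold (log2 fold change 3.49, SE 0.30, adjusted p = 2.7e-05), and the pairs gave 3.41, 3.07 and 3.85. Without the block the adjusted p was 0.058, while DESeq2 called the gene with and without the block. The mast cell genes Mcpt2, at 11.3, 13.8 and 16.5 CPM untreated and 1.89, 2.10 and 5.43 CPM with doxycycline, and Ms4a2, at 6.78, 10.3 and 1.77 and at 0.834, 0.997 and 0.321 CPM, were lower in each pair. The part of such cells in the values of Il9r and Il1rl1 was not tested. The other common gamma partners were Il15ra, at 5.96 ± 1.37 and 6.16 ± 1.80 CPM (SD, n = 3 each), which did not pass in either fit, and Il7r, Il21r and Il2rb, which were silent.

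**Figure D3:**
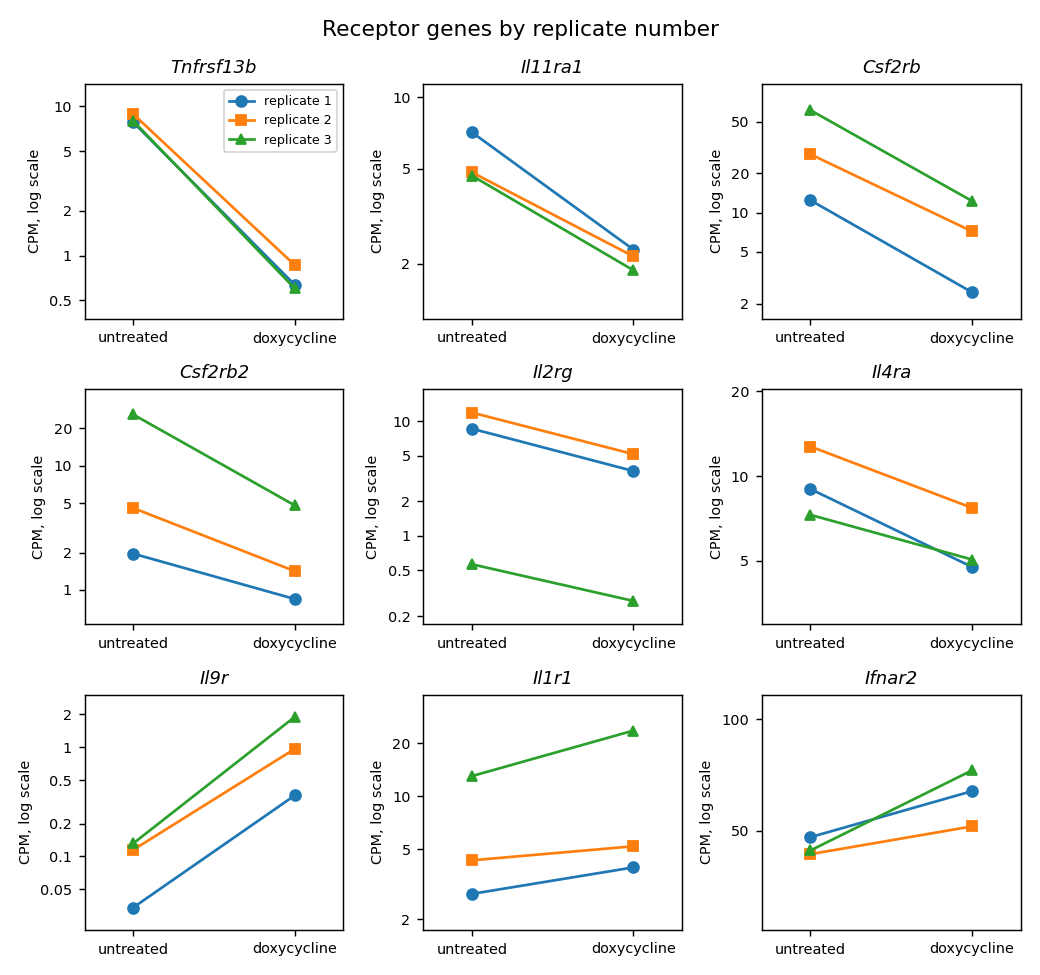
CPM on a log scale in untreated and doxycycline libraries for 9 receptor genes, with a line joining libraries of equal replicate number; the vertical scales differ. Lines for Il2rg and Csf2rb start up to 21.0-fold and 4.91-fold apart and run nearly parallel, whereas those of Tnfrsf13b start within 1.13-fold of each other.

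Of the interleukin 1 and interleukin 17 receptor genes, the most abundant was lower and its shared partner was not called. Il1rl1 (ST2) stood at 230.5, 239.6 and 160.5 CPM untreated and at 160.4, 153.6 and 116.6 CPM with doxycycline. The lowest untreated library lay just above the highest doxycycline library. It fell with the block (-0.54, SE 0.09, adjusted p = 0.0012; 0.25 without). Il1rap, the accessory chain it shares with the interleukin 1 receptor, stood at 23.1 ± 3.66 and 24.9 ± 4.73 CPM (SD, n = 3 each) and did not pass in either fit. Il1r1, the interleukin 1 receptor itself, stood at 2.79, 4.32 and 13.0 CPM untreated and at 3.94, 5.19 and 23.5 CPM with doxycycline. It was higher in each pair and rose with the block (0.55, SE 0.15, adjusted p = 0.020; 0.78 without; 0.13 with the block but not number 1). Without doxycycline replicate 3 the unblocked value of Il1r1 was -0.55, and without untreated replicate 3 it was 1.62. Il17ra, the shared interleukin 17 chain, stood at 61.0, 77.1 and 50.7 CPM untreated and at 49.5, 63.4 and 38.8 CPM with doxycycline. The groups overlapped, each number was lower with doxycycline, and the gene fell with the block (-0.32, SE 0.09, adjusted p = 0.023; 0.62 without). Il17ra lost this call in DESeq2 with the block (adjusted p = 0.11) and in the block fit without number 1 (adjusted p = 0.17) or 2 (adjusted p = 0.069). Il17rc, its partner, stood at 1.17 ± 0.748 and 1.596 ± 0.652 CPM and did not pass (block adjusted p = 0.085). Il12rb1, a chain of the interleukin 12 and 23 receptors, had 2.46 ± 0.218 and 2.80 ± 0.850 CPM (SD, n = 3 each) and passed in neither fit.

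The chains for type I interferon rose with the block and those for interferon gamma were not called. Ifnar2 stood at 48.1, 43.3 and 44.3 CPM untreated and at 64.0, 51.4 and 72.8 CPM with doxycycline. Its groups did not overlap (block log2 fold change 0.46, SE 0.11, adjusted p = 0.011; 0.23 without). Ifnar1 stood at 38.9, 43.6 and 33.8 CPM untreated and at 49.9, 59.0 and 37.7 CPM with doxycycline, higher in each pair (0.32, SE 0.10, adjusted p = 0.037; 0.52 without). Both calls ended in the block fit without number 1 (adjusted p = 0.099 for Ifnar2 and 0.21 for Ifnar1), and that of Ifnar1 also without number 2 (adjusted p = 0.20). Ifngr1 had 20.3 ± 2.6 and 20.6 ± 2.63 CPM and Ifngr2 29.0 ± 4.62 and 27.4 ± 1.56 CPM (SD, n = 3 each). Il10rb, which serves interleukin 10 and the type III interferons, had 15.6 ± 2.22 and 13.9 ± 2.81 CPM and was not called. Ifnar2 and Il10rb share exon sequence with the annotated gene Gm21970, Il27ra with Palm3, Il2rg with Gm20489 and Il4ra with Gm44876. The library kit does not mark strand, so how reads were divided in these overlaps is uncertain.

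Among the chemokine receptors 2 genes were judged. Cxcr4, the receptor that holds progenitors in the marrow, stood at 20.2, 12.6 and 4.59 CPM in untreated replicates 1, 2 and 3 and at 35.02, 22.03 and 5.20 CPM with doxycycline. The groups overlapped widely, and each number was higher with doxycycline (block log2 fold change 0.61, SE 0.14, adjusted p = 0.011; 0.73 without; 0.17 with the block but not number 1). Ccr2, the receptor of inflammatory monocytes, stood at 19.3 ± 3.02 and 18.2 ± 3.52 CPM (SD, n = 3 each), with mixed directions among the pairs. Cxcr3, below the minimum, had 0.283, 0.293 and 0.263 CPM untreated (25, 23 and 26 counts) and 0.0439, 0.0925 and 0.0602 CPM with doxycycline (4, 9 and 6 counts). Only its untreated libraries carried it past the filter on low counts, so its direction is in part fixed by that filter. It passed in both fits (-2.07, SE 0.36, adjusted p = 0.033 without the block, where 2.05% of tested genes under 0.5 CPM fell and 0.341% rose), but leaving out any single library ended the call without the block (adjusted p between 0.057 and 0.14).

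Tlr6, a Toll-like receptor that senses diacylated lipopeptides together with TLR2, was the single judged member of its family. It stood at 0.725, 0.790 and 0.970 CPM untreated and at 0.406, 0.432 and 0.432 CPM with doxycycline. The groups lay apart, and Tlr6 fell with the block (-0.96, SE 0.22, adjusted p = 0.010; 0.12 without; 0.10 with the block but not number 1). Its partner Tlr2 averaged 0.0940 CPM and was not tested. Of the 9 members that were tested below the minimum, 4 fell with the block and none rose (11% of the 2347 tested genes under 0.5 CPM fell and 6.9% rose): Cxcr3, Il6ra (-2.41, adjusted p = 0.0013), Il31ra (-1.50, adjusted p = 0.0035) and Il12rb2 (-1.64, adjusted p = 0.0099). Csf1r, the M-CSF receptor and a well known PU.1 target, stood at 0.396, 0.472 and 0.748 CPM untreated and at 0.208, 0.257 and 0.542 CPM with doxycycline and was not called (block adjusted p = 0.059). The other members below the minimum, Il20rb, Tnfrsf25, Ccr9 and the Tnfrsf13c described above, were not called either.

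Many of the judged members also differed between the replicate numbers. In the block fit 18 of 31 judged members differed between the numbers at an adjusted p under 0.05 (58.1%, where 48.2% of genes at this level did), a test added after the data were examined. The fold between the highest and lowest untreated library had a median of 1.52 over the members, against 1.35 over all genes at this level, and ran from 1.06 for Il3ra to 21.0 for Il2rg. For 11 of the 17 members called with the block, that spread on the log2 scale exceeded the size of the block fit's log2 fold change. A range over libraries and a fitted change are unlike measures, and the share over all called genes was not computed. Replicate 3 was the highest of its group for Csf2rb, Csf2rb2, Il1r1 and Il9r and the lowest for Il2rg, Cxcr4, Tnfrsf1a and Il1rl1, in untreated and doxycycline libraries alike. What tells the numbers apart is not stated in the labels.

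**Figure D4:**
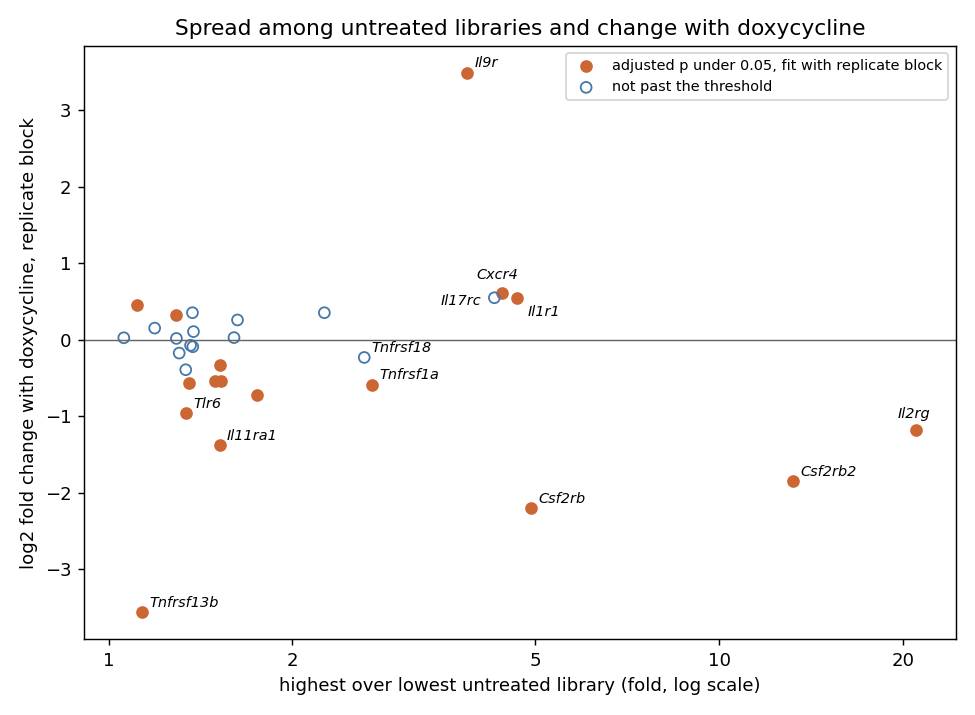
For each of the 31 judged receptor genes, the fold between the highest and the lowest untreated library (horizontal axis, log scale) against the log2 fold change with doxycycline in the block fit (vertical axis); filled points passed that test. Tnfrsf13b combines a large fall with a spread of 1.13-fold, whereas Il2rg and Csf2rb2 combine falls with spreads of 21.0-fold and 13.2-fold.

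Promoter sequences are shown for 4 members on which the results turn: Tnfrsf13b and Il11ra1, which passed without the block, Csf2rb2, the interleukin 3-specific duplicate of Csf2rb, and Il9r, the largest rise. A promoter of Csf2rb itself was not used here. They are RefSeq sequences of GRCm38.p6, from 250 bases before to 50 after the annotated start, 5′ to 3′ on the strand of the gene. Capitals mark GAGGAA, a core sequence that PU.1 binds, and AGATAA, a core that GATA factors bind, each on either strand.
Tnfrsf13b, chr11:61126505-61126804, plus strand: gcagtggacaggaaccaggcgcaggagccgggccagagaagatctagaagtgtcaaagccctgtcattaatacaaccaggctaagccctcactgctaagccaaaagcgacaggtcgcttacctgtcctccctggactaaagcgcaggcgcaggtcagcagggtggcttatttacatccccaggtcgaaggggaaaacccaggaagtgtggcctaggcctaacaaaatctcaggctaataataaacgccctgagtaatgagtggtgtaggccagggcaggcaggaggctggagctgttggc
Il11ra1, the second of its annotated starts, chr4:41762060-41762359, plus strand: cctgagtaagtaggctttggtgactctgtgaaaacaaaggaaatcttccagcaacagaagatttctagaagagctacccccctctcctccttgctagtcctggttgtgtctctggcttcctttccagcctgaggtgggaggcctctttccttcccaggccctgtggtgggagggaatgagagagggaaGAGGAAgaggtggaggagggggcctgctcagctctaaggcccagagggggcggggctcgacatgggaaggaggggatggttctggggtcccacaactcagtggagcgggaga
Csf2rb2, chr15:78305672-78305971, minus strand: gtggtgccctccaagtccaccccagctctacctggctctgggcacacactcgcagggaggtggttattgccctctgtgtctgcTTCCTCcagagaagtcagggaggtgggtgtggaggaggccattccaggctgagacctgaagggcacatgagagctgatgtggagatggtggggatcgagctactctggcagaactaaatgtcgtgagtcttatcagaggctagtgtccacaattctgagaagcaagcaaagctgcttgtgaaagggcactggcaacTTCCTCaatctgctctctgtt
Il9r, chr11:32200230-32200529, minus strand: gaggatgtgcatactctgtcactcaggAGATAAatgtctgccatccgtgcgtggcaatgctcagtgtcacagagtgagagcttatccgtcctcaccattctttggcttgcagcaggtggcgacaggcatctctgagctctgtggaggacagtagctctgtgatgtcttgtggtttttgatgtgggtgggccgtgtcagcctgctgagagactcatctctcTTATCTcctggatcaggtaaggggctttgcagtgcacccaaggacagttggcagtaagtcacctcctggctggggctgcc

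GAGGAA was found once at Il11ra1 and at 2 places at Csf2rb2, and not in the windows of Tnfrsf13b and Il9r, while AGATAA was found at 2 places at Il9r and in none of the other windows shown. The first of the annotated starts of Il11ra1 used here, not shown, held neither. Its windows lie inside the span given above for the gene, and the start of that span was not scanned. Over 11825 promoters of 9327 tested genes, 26.4% held GAGGAA and 6.94% held AGATAA. Of the judged members 25 had a promoter in the table, 30 promoters in all, of which 7 held GAGGAA (23.3%) and 4 held AGATAA (13.3%). GAGGAA was in 4 of 12 promoters of the members that fell with the block and in 1 of 6 of those that rose. AGATAA was in 2 of 12 promoters of those that fell, both of Il1rl1, and in 1 of 6 of those that rose, that of Il9r (16.7% each). A match is a description of the letters and shows no binding. Only these exact letters were searched for, so a window without them may hold other forms that these factors bind.

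The ligands of these receptors were mostly silent, and some of those that were tested fell. Of 60 listed cytokines, chemokines and TNF ligands 50 were in the table and 14 were tested, of which 4 fell and 1 rose (7 fell and 1 rose with the block), with a median log2 fold change of -0.95. Over all genes tested 2.59% were called (2.18% lower, 0.417% higher), 25.8% with the block (15.6% lower, 10.3% higher), and the median was 0.01. Tnfsf13, which encodes APRIL, a ligand of TACI, was at 0.283, 0.229 and 0.121 CPM untreated and at 0.0329, 0.0103 and 0.0201 CPM with doxycycline (-3.25, SE 0.55, adjusted p = 0.030). Tnfsf13 shares exon sequence with the Tnfsfm13 and Tnfsf13os genes. Its doxycycline values lie near the smallest deposited count, which is 1. It passed the filter on low counts through the untreated libraries only, so its direction is in part fixed by that filter. Tnf went from 1.45 ± 0.718 to 0.122 ± 0.0363 CPM (SD, n = 3 each; -3.56, SE 0.52, adjusted p = 0.021). Tnfsf14 (LIGHT), a ligand of Tnfrsf14, went from 2.52 ± 0.617 to 0.491 ± 0.174 CPM (SD, n = 3 each; -2.35, SE 0.37, adjusted p = 0.024). Il1b, the ligand of Il1r1, was the one that rose (2.58, SE 0.31, adjusted p = 0.014), with means of 0.893 ± 0.0347 CPM untreated and 5.35 ± 1.82 CPM after the drug (SD, n = 3 each), and Ccl17 completed the 4 that fell (-2.66, SE 0.42, adjusted p = 0.025). Ccl17, at 0.317, 0.523 and 0.364 CPM untreated, also passed the filter on low counts through those libraries only. Il1b shares exon sequence with Il1bos.

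Downstream, 5 signalling genes in 3 lists passed without the block. In each list this was a larger share than the 2.59% called over all genes (2.18% lower, 0.417% higher), though it rests on few genes. The counts with the block below stand against 15.6% lower and 10.3% higher over all genes. Of 24 tested JAK, STAT and SOCS genes Ptpn6, the phosphatase SHP-1 that dampens cytokine receptors, fell (-1.10, SE 0.13, adjusted p = 0.014), with means of 82.5 ± 4.09 and 38.6 ± 2.89 CPM (SD, n = 3 each), and none rose. The median of that list was -0.10. With the block 6 of these fell and 3 rose, among them Stat6, which serves the interleukin 4 receptor (-0.54, adjusted p = 0.0016), and Socs3, a feedback inhibitor (1.13, adjusted p = 0.0035). Of 28 tested genes of Toll-like and interleukin 1 receptor signalling 2 fell and none rose (median -0.24; 11 fell and 3 rose with the block). They were Irf5, an interferon regulatory factor (-1.41, SE 0.20, adjusted p = 0.018; means of 7.12 ± 0.268 and 2.67 ± 0.205 CPM), and Unc93b1 (-1.88, SE 0.24, adjusted p = 0.014). Of 23 tested genes of TNF receptor signalling Cflar, which encodes the caspase 8 inhibitor FLIP, fell (-1.20, SE 0.19, adjusted p = 0.025; means of 31.8 ± 4.38 and 13.8 ± 2.21 CPM). In the same list Traf4 rose (0.93, SE 0.15, adjusted p = 0.028; means of 19.2 ± 2.26 and 36.7 ± 2.12 CPM, SD, n = 3 for all of these), the median was -0.15, and 9 fell and 2 rose with the block. Jak3, the kinase bound by the common gamma chain, stood at 3.89 ± 1.05 and 3.59 ± 1.33 CPM and did not pass in either fit.

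Of 33 listed receptors that the symbol patterns miss, 24 were in the table and 14 were tested, and Relt, a TNF receptor relative of blood cells, was the one that passed. It stood at 61.4, 58.2 and 49.1 CPM untreated and at 22.8, 24.4 and 21.6 CPM with doxycycline, with no overlap (-1.29, SE 0.15, adjusted p = 0.013). The list had a median of -0.44, and with the block 7 fell and 3 rose, Epor being among the latter (0.43, SE 0.09, adjusted p = 0.0076). Over all genes tested 2.59% were called without the block, and 15.6% fell and 10.3% rose with it.

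**Figure D5:**
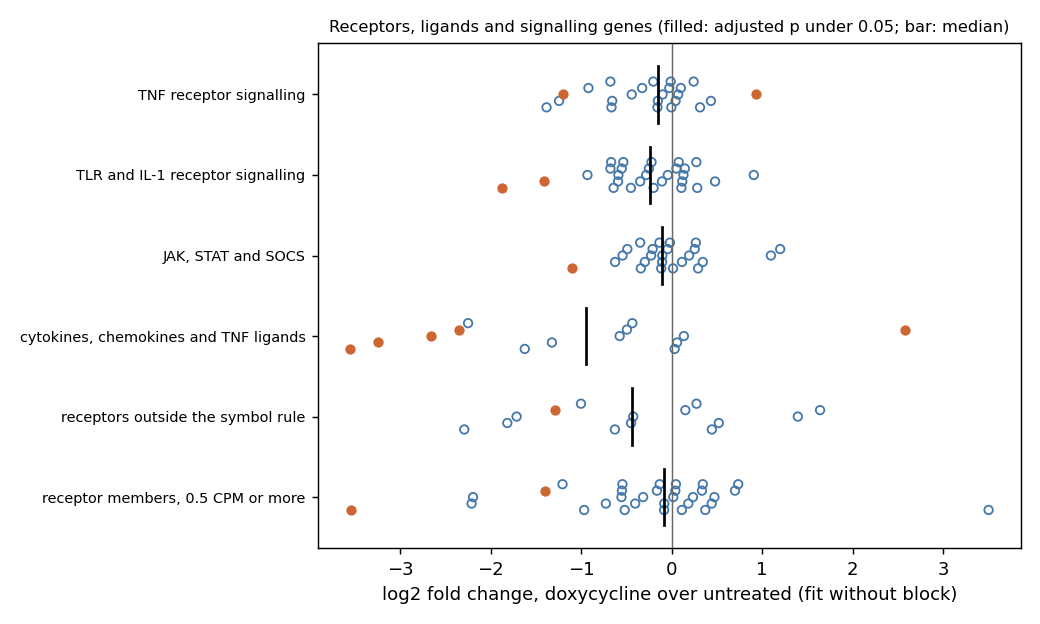
Log2 fold change of doxycycline over untreated, fit without the block, for the 31 judged receptor genes and for the tested members of 5 lists; filled points passed the test and bars mark medians. The ligand list has the lowest median, -0.95, and the other medians lie between -0.44 and -0.08.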

How the data were processed

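Poly(A) RNA of the 6 samples was sequenced from TruSeq RNA v2 libraries, per the labels' protocols. The authors deposited raw read counts per gene symbol. The submitters' processing notes name bcl2fastq 2.17.1.14, STAR, DESeq2, mm10 and GRCm38; the counter, annotation and strand setting were not given in the sources used here. The smallest deposited count is 1 and no 0 occurs, so a constant may have been added.

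Columns were matched to samples by name. The test was edgeR 4.0.16 (quasi-likelihood, TMM, filterByExpr, group as only term; R 4.3.3, limma 3.58.1), two-sided, adjusted by Benjamini-Hochberg over all genes tested, and was tested on simulated data. The simulated counts had the block fit's spread and no difference between replicate numbers. They therefore do not show how the main fit performs on these data. The SE was taken as the log2 change over the square root of its F. Equal replicate numbers were taken as pairs because same-numbered libraries deviated together (correlations 0.83, 0.83 and 0.75; unlike numbers -0.69 to -0.11). Residual degrees of freedom were 4 without the block and 2 with it, and the common biological coefficient of variation was 28.6% and 11.3%. Alternatives were DESeq2 1.42.0, other scaling and filters, and left-out libraries. All members of 0.5 CPM or more were judged; those called in either fit are given by library, and up to 3 called genes of each list (smallest adjusted p) by name. Other list genes (Tnfsf13, Ccl17, Il6st, Jak3, Stat6, Socs3, Epor) were picked for their tie to a member after their values were seen. At these depths counting error is small above 5 CPM. Members and lists were chosen with earlier results of these data known. Positions and exon lengths are from GENCODE M21 (GRCm38).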

Additional observations from a re-analysis of the deposited data

How the results depend on the processing

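The receptor genes called numbered 2 (both lower) in the main fit, 17 with the replicate block (5 higher and 12 lower), 4 with DESeq2, 15 with DESeq2 and the block (Csf2ra and Il17ra lost), and 1 with no filter on low counts; leaving out single libraries gave 1 to 1, and leaving out a replicate number in the block fit 7 (without number 1), 15 (without 2) and 22 (without 3). Judging the 19 members of 5 CPM or more gave 0 by edgeR without the block (1 higher and 4 lower at an unadjusted p under 0.05, and 1 lower by DESeq2) and 12 with it (4 higher and 8 lower). The share called among all genes of 5 CPM or more was not computed. Over all genes the counts were 367 (main), 3658 (block), 930 (DESeq2), 3396 (DESeq2 with the block) and 66 (no filter), with 38 to 268 when a library was left out and 1248, 3429 and 4748 in the block fit without number 1, 2 or 3. The causes were not tested, beyond the fewer samples or genes in each fit. The 17 members called with the block had the same direction under each alternative, except Il1r1, which was at -0.55 without doxycycline replicate 3 and up to 1.62 without the other libraries in turn. DESeq2's size factors and taking 1 off every value changed no count by over 1.5 times. Depth limits the members under 0.5 CPM, where a library holds few counts.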

Other observations

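The Toll-like receptors were silent or nearly so, while several genes that help them were measurable and lower with doxycycline. Unc93b1, the chaperone that carries nucleic acid sensing Toll-like receptors to endosomes, stood at 5.84, 4.86 and 5.07 CPM untreated and at 1.28, 1.29 and 1.71 CPM with doxycycline, with no overlap. Its clients Tlr3, Tlr7 and Tlr9 averaged 0.0258, 0.108 and 0.0143 CPM. Ly96, which encodes MD-2, the partner of TLR4, stood at 1.78, 1.81 and 3.09 CPM untreated and at 0.483, 0.555 and 0.994 CPM with doxycycline (block log2 fold change -1.73, SE 0.19, adjusted p = 1.1e-04; 0.077 without the block). Tlr4 itself averaged 0.0293 CPM. Cd14, the co-receptor of TLR4 and a monocyte marker, also fell with the block (-1.86, SE 0.38, adjusted p = 0.0052; 0.092 without). The kinases that these receptors share with the interleukin 1 receptor did not move one way: Irak1 (-0.95) and Irak4 (-0.59) fell and Irak2 (0.89) rose with the block. These genes were picked after their values were seen.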
